A study of Mus musculus with 8 samples.

Results

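The genes described here are 10 genes of stratified squamous epithelium, followed across the 8 libraries of a study of E18.5 mouse spines. They are the basal genes Krt5, Krt14, Krt15 and Trp63, the spinous genes Krt1, Krt10, Krtdap and Sbsn, the cornified envelope gene Lor and the ammonium transporter Rhcg. These 10 genes of the 27179 in the deposited counts table were listed by name, as markers of skin or oesophagus that might have been taken with a spine. They were selected on their levels in these same libraries, the low Rhcg value in KO males included, so what is given for them is a description. Whole spines were taken from wild type (WT) embryos and from embryos with a knockout (KO) labelled Pax1-Enh, of each sex, with 2 libraries in each of the 4 groups. All were at E18.5, shortly before birth. The strain is not given in the labels, and nothing in them says that the libraries of a group came from separate embryos, so p-values measure the spread between these libraries.

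Stratified epithelium renews itself from a basal layer, which is held to the basement membrane and makes the keratin pair Krt5 and Krt14 under the transcription factor p63 (Trp63). Cells that leave this layer switch to the pair Krt1 and Krt10 and later cross-link loricrin (Lor), filaggrin and other proteins into the cornified envelope. The epidermis is cornified shortly before birth, and in skin both keratin pairs are among the most abundant transcripts. The lining of the mouth and oesophagus uses Krt4 and Krt13 above its basal layer in place of Krt1 and Krt10.

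Library totals ran from 35181518 to 67575728 counts, and all 4 KO libraries were deeper than all 4 WT libraries, so depth and genotype cannot be told apart. Levels are given as CPM (counts scaled to a common library size after edgeR's TMM normalisation), and a count of 3 was worth 0.0392 to 0.0831 CPM. Mitochondrial genes took 18.3% and 20.9% of the counts in WT males, 4.56% and 15.6% in KO males, 5.55% and 7.27% in WT females and 13.6% and 4.66% in KO females. The labelled tissue was present in every library, with the cartilage collagen Col2a1 at 3526.3 to 22474.0 CPM. Of 18104 genes that passed the filter on low counts, all 10 members were among them.

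The label of skin was checked first, and the basal keratins Krt5 and Krt14 were at low levels in all 8 libraries. Whether a trace of skin was present in any of them was not tested. Some genes of the late epidermal layers, such as Flg, stood out in 1 library, male WT 1, as described further on. Krt5, Krt14 and Krt15 were also highest in that library, at 0.592, 0.740 and 1.28 CPM. Lor was not, at 3.95 CPM there and 5.96 CPM in female WT 1. Together the 10 members took 44.95 and 36.31 CPM in WT males, 24.52 and 30.35 CPM in KO males, 28.91 and 21.36 CPM in WT females and 26.4 and 22.59 CPM in KO females. Krt5 and Krt14 stayed under 1 CPM in all 8 libraries. In CPM, which grows with transcript length, 94.5% of the genes tested had a higher mean than Krt5, 90.4% a higher one than Krt14 and 64.0% a higher one than Krt10. The 10 genes are therefore named here by their symbols and by the layer in which each is known, not as a cell type that was seen. In whole spines fewer cells of a type and less RNA per cell cannot be told apart.

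RefSeq promoter windows (GRCm38.p6, 250 bases before and 50 after the gene start) were at hand for 7 members: Lor, Sbsn, Krtdap, Rhcg, Krt10, Krt14 and Krt5. The 120 bases before the start are shown, 5′ to 3′ on the gene's strand, for Krt10 (chr11:99389365-99389484, minus strand) as the member with the most counts and for Krtdap (chr7:30787785-30787904, plus strand) as the one most uneven among the spinous genes. Those of Lor (chr3:92083143-92083262, minus strand) stand for the envelope, those of Krt5 (chr15:101712906-101713025, minus strand) for the basal genes at trace level, and those of Rhcg (chr7:79617658-79617777, minus strand) for the member with the largest knockout difference. Capitals mark TATAAA, the TATA box letters, and TGANTCA, the letters bound by AP-1 factors, on either strand.
Krt10: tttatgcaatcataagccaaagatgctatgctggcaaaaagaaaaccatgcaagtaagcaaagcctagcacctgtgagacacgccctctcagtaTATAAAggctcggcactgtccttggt
Krtdap: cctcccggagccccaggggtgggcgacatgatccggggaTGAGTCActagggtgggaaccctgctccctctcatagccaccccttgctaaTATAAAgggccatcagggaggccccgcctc
Lor: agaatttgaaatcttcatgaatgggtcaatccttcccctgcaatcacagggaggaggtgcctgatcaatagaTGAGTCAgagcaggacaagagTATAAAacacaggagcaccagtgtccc
Krt5: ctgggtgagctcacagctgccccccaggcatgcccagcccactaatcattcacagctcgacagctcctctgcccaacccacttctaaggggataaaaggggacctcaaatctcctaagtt
Rhcg: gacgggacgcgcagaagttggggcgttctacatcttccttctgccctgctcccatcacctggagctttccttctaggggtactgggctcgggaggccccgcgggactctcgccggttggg
TATAAA was in the windows of Lor, Krtdap and Krt10 (3 of 7) and in 13.6% of all 32851 windows of this length. TGANTCA was in those of Lor, Sbsn and Krtdap (3 of 7, against 7.81% of all). CACCC, the core letters of Krüppel-like factor sites, was in 6 of 7 (57.5% of all), and a loose outline of the p63 site was in 6 of 7 (70.2% of all). Matches to that outline can overlap the others. These are letter matches in a window, and the marked ones in Krtdap and Lor did not overlap each other.

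The basal keratins were at trace level throughout. Krt5 (Entrez gene 110308, chromosome 15, 101707069 to 101712905 in mm10), the type II keratin of the basal layer, gave 24 and 5 counts in WT males, 20 and 21 in KO males, 15 and 8 in WT females and 6 and 3 in KO females. In CPM these were 0.592 and 0.115, 0.261 and 0.390, 0.338 and 0.222, and 0.107 and 0.0427. The 2 female KO libraries were the lowest of all and lay below both female WT libraries, while the male groups overlapped. Krt14 (16664, chromosome 11), its type I partner, was at 0.740 and 0.300 CPM in WT males, 0.510 and 0.613 CPM in KO males, 0.675 and 0.166 CPM in WT females and 0.268 and 0.214 CPM in KO females. Its groups overlapped in each sex. Krt15 (16665, chromosome 11), a type I keratin of basal and follicle stem cells, was at 1.28 and 0.254 CPM in WT males and 0.471 and 0.0743 CPM in KO males. In females it was at 0.293 and 0.0831 CPM in WT and 0.0893 and 0.214 CPM in KO. Male WT 1, with 52 counts, was the one library above 1 CPM. Keratin genes of one type resemble each other, and how reads shared between them were counted is not given in the sources used here, so such low counts are uncertain.

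Trp63 (22061, chromosome 16), the basal layer regulator, stood apart from the keratins it accompanies in skin. It was at 2.52 and 2.03 CPM in WT males, 4.54 and 6.74 CPM in KO males, 2.57 and 2.49 CPM in WT females and 3.18 and 2.04 CPM in KO females. Both male KO libraries lay above the other 6. Per kilobase of exon, which allows genes to be compared, the mean level of Trp63 (0.389 CPM per kb) was still above that of Krt14 (0.257), Krt15 (0.203) and Krt5 (0.118).

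**Figure D1:**
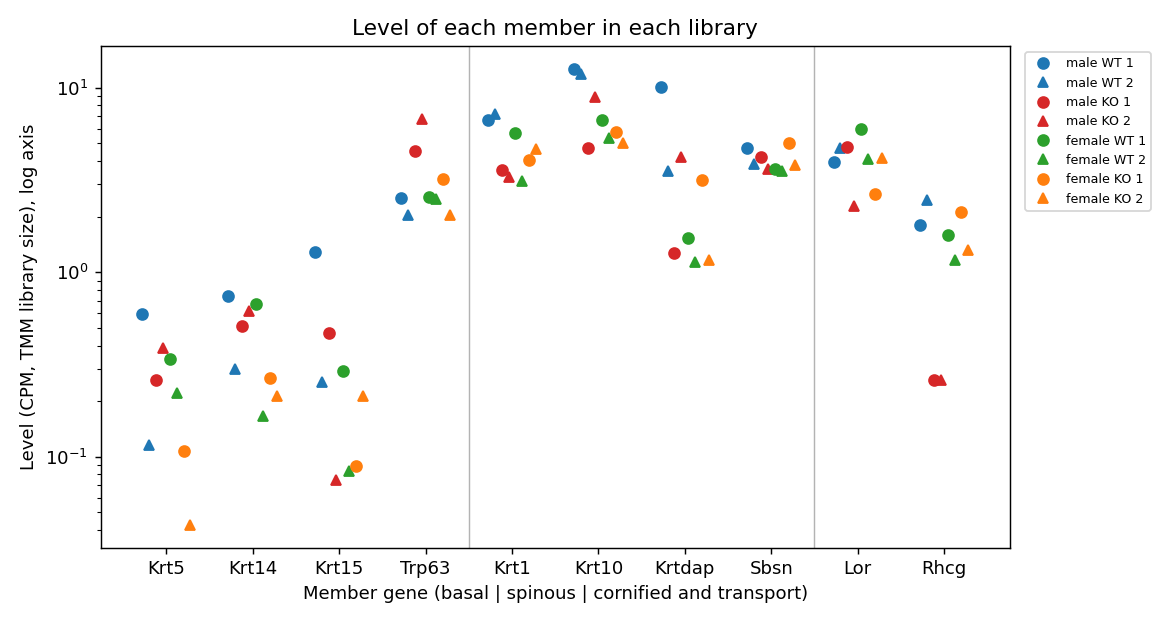
Level of each of the 10 members in each library, in CPM at the TMM library size on a log axis, with circles for replicate 1, triangles for replicate 2 and a colour per group. Krt5 and Krt14 lie under 1 CPM in every library, Trp63 is highest in the 2 male KO libraries, and Rhcg is lowest in them at 0.261 and 0.260 CPM.

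The spinous genes were present at low but countable levels. Krt10 (16661, chromosome 11, 99385254 to 99397449), the type I keratin of suprabasal cells, was at 12.65 and 11.86 CPM in WT males and at 4.69 and 8.90 CPM in KO males. In females it was at 6.68 and 5.32 CPM in WT and at 5.77 and 4.98 CPM in KO. The male WT pair was the highest of all and did not overlap KO males, while the female groups overlapped. Its type II partner Krt1 (16678, chromosome 15) was at 6.68 and 7.22 CPM in WT males, 3.56 and 3.29 CPM in KO males, 5.67 and 3.13 CPM in WT females and 4.05 and 4.66 CPM in KO females. Krt1 too was highest in WT males, without overlap with KO males and with overlap in females.

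Krtdap (64661, chromosome 7), which encodes a small secreted protein of differentiating keratinocytes, varied most among the spinous genes. It was at 10.06 and 3.53 CPM in WT males, 1.27 and 4.20 CPM in KO males, 1.53 and 1.14 CPM in WT females and 3.14 and 1.17 CPM in KO females. Its groups overlapped in both sexes. The 4 libraries with 13.6% to 20.9% mitochondrial counts held the 4 highest Krtdap levels, and the 4 libraries with 4.56% to 7.27% held the 4 lowest. Krtdap also has the shortest exons of the members (470 bases against 1698 to 8391), and the part of the mitochondrial share or of transcript length in its level was not tested.

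Sbsn (282619, chromosome 7), the suprabasal protein suprabasin, was the steadiest member. It was at 4.69 and 3.85 CPM in WT males, 4.18 and 3.60 CPM in KO males, 3.60 and 3.55 CPM in WT females and 5.04 and 3.80 CPM in KO females. The 8 libraries spanned a ratio of 1.42 between the highest and the lowest, and 92.1% of the genes tested spanned more. Gapdhs, whose gene model overlaps that of Sbsn, had a mean of 0.249 CPM, and the strand setting of the counting is not given in the sources used here.

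Lor (16939, chromosome 3), the glycine-rich main protein of the cornified envelope, was at 3.95 and 4.68 CPM in WT males, 4.78 and 2.29 CPM in KO males, 5.96 and 4.10 CPM in WT females and 2.64 and 4.16 CPM in KO females. Its groups overlapped in each sex. Rhcg (56315, chromosome 7, 79593363 to 79617657), which carries ammonium across the membranes of kidney tubule and of some squamous epithelia, was at 1.80 and 2.47 CPM in WT males and at 0.261 and 0.260 CPM in KO males. In females it was at 1.60 and 1.16 CPM in WT and at 2.13 and 1.32 CPM in KO. The male KO pair, with 20 and 14 counts, lay below the other 6 libraries, whose counts ran from 42 to 119.

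Ratios within a library do not depend on how libraries are scaled. Per kilobase, Krt1 and Krt10 together exceeded Krt5 and Krt14 together 8.75-fold to 37.3-fold. That ratio was 12.35 and 37.3 in WT males, 8.75 and 10.3 in KO males, 9.93 and 19.1 in WT females and 21.2 and 29.3 in KO females, so spinous over basal keratin held in all 8. Lor relative to Krt10 ran from 0.305 in male KO 2 to 1.21 in male KO 1, which are replicates of one group. Krt1 relative to Krt10 ran from 0.318 to 0.805, with Krt10 above Krt1 in each of the 8. The oesophageal pair Krt4 and Krt13 came to between 0.00742 and 0.0709 of Krt1 and Krt10.

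**Figure D2:**
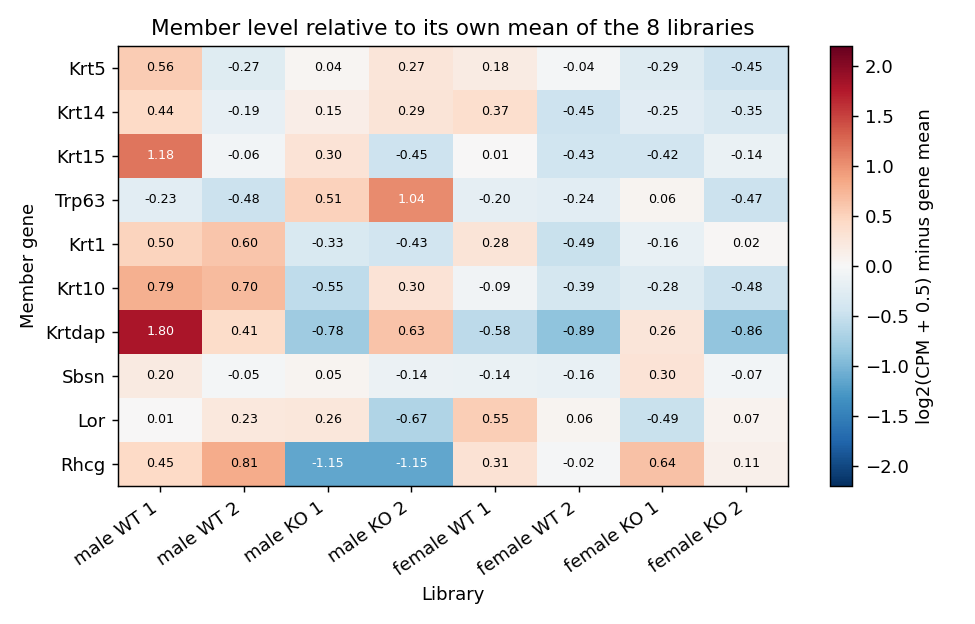
Each member's log2(CPM + 0.5) in each library minus its own mean over the 8 libraries, with red for higher and blue for lower. The rows differ from one another: Krtdap is highest in male WT 1 at 1.80, Trp63 in male KO 2 at 1.04, and Rhcg is at -1.15 in both male KO libraries.

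The members did not share one pattern. Their median ratio between the highest and the lowest library was 3.89, where it was 2.195 over the genes tested without a library at 0. Male WT 1 was the highest library for 5 of the 10 members, and for 9.11% of all genes tested. Those 5 were Krt5, Krt14, Krt15, Krt10 and Krtdap. Likeness was measured as the root mean square difference between centred log2 levels over the 8 libraries, which is 0 for genes with the same centred values. The pseudocount of 0.5 shrinks the folds of genes at such low levels: Krt5 spanned 13.86-fold in CPM but only -0.45 to 0.56 after centring, so its likeness is no measure of equal folds. Against the mean of the other 9 members it was 0.269 for Sbsn and 0.273 for Krt5, and 0.655 for Trp63, 0.730 for Rhcg and 0.749 for Krtdap.

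Outside the marker lists, the 8 genes most like the mean of the members were Bpgm (0.117), Isg20 (0.126), Pdzk1ip1 (0.139), Fgf10 (0.144), Pipox (0.149), Upb1 (0.153), Eif4ebp3 (0.155) and Lrrc46 (0.159), among 14266 candidates whose median was 0.413. With Rhcg left out of the mean, 5 of these 8 were among the closest 8 again. The closest gene to each member, looked up after the values were seen and with marker list genes allowed, was a keratin only for Krt14 (Krt18, 0.195). For Krt10 it was Rec114 (0.141), for Krt1 Fam181b (0.124), for Lor the homeobox gene Lbx1 (0.0873) and for Sbsn Nsmce3 (0.0618). For Krtdap the closest 3 were Timm8b (0.304), Rps27 (0.319) and Rpl30 (0.319), which encode small mitochondrial and ribosomal proteins. For Rhcg they were Hoxc6 (0.285), Ak4 (0.304) and Ankrd37 (0.320).

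The knockout comparison in males asked whether genes differ between KO and WT spines, and no gene passed an adjusted p of 0.05 in edgeR's quasi-likelihood test (0% of 18104). The smallest adjusted p was 0.179, and 14.8% of the genes had an unadjusted p under 0.05. Of the members, 4 of 10 were in that 14.8%: Rhcg, Trp63, Krt1 and Krt10. DESeq2 called 2 of the 10, Trp63 as higher and Rhcg as lower, where it called 2.66% of all genes. No overlap between the genotypes was seen for Trp63 as higher (19.7% of all genes) and for Krt1, Krt10 and Rhcg as lower (23.9% of all genes), a share of members near that of all genes. Values were negative for 8 of 10 members with a median of -0.57, and over all genes 45.4% were positive with a median of -0.06. Without male WT 1 the members' median was -0.18. Nothing is read from these counts, since the members were selected with these libraries known.

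Trp63 had a log2 fold change of 1.31 in males (SE 0.35, adjusted p = 0.239 in edgeR, 0.0305 in DESeq2). The DESeq2 call ended without male WT 1 (adjusted p = 0.0728), male WT 2 (0.485), male KO 2 (0.0825), female WT 1 (0.0625) or female WT 2 (0.0596). Beside it, the 8 skeletal muscle markers, with none at 0, summed to 17086.2 and 8287.0 CPM in WT males and to 25005.4 and 22380.0 CPM in KO males. In females, where Trp63 was at 2.04 to 3.18 CPM, they summed to 11936.3 and 17606.8 CPM in WT. They summed to 17274.6 and 15788.0 CPM in KO females. The part of the muscle markers in the Trp63 level was not tested. The basal keratins did not go with it: log2 fold changes were -0.12 for Krt5 (SE 0.74), 0.11 for Krt14 (SE 0.67) and -1.43 for Krt15 (SE 0.97), with adjusted p from 0.485 to 0.946 in edgeR. Without male WT 1 these were 1.47, 0.90 and 0.15.

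Rhcg had a log2 fold change of -3.02 in males (SE 0.44), a value that was known when the list was made. In the same libraries the 12 anterior Hox genes, which mark the neck and upper trunk, summed to 150.1 and 181.6 CPM in WT males and to 80.11 and 70.15 CPM in KO males. The 8 lung and airway markers summed to 41.13 and 80.46 CPM in WT males and to 8.33 and 4.94 CPM in KO males, with Sftpa1, Sftpd, Nkx2-1 and Scgb1a1 at 0 in some libraries. In females, where Rhcg was at 1.16 to 2.13 CPM, the lung list summed to 6.93 and 3.63 CPM in WT. It summed to 6.12 and 10.76 CPM in KO females. The anterior Hox list summed to 117.5 and 120.5 CPM in WT females and to 104.7 and 104.2 CPM in KO females. The 8 kidney tubule markers, a tissue rich in Rhcg, summed to 2.24 and 2.19 CPM in WT males and 2.26 and 1.91 CPM in KO males, and Umod was at 0 in all 8 libraries. The part of these tissues in the Rhcg level was not tested.

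Krt1 had a log2 fold change of -1.02 in males (SE 0.32, adjusted p = 0.265) and Krt10 of -0.85 (SE 0.32, adjusted p = 0.298), so neither passed in edgeR. DESeq2 gave them adjusted p of 0.120 and 0.226. Without male KO 1 the Krt10 value was -0.46, and without male KO 2 it was -1.38. The mitochondrial share was also higher in WT males than in KO males. Leaving out the mitochondrial genes changed neither direction, but it only rescales the libraries and leaves other differences between them in place. The part of the mitochondrial share in Krt1 or Krt10 was therefore not tested. Other lists also differed between the same libraries. Values were negative for 12 of 12 anterior Hox genes (median -0.88), 8 of 8 lung genes (-3.24), 8 of 8 adipocyte genes (-3.06) and 8 of 8 spinal cord neuron genes (-0.64). They were positive for 11 of 11 posterior Hox genes tested (1.81), 8 of 8 cartilage genes (0.95) and 8 of 8 muscle genes (0.59). The part of these in Krt1, Krt10, Rhcg or Trp63 was not tested. Krtdap (-1.32, SE 0.70), Sbsn (-0.13, SE 0.28) and Lor (-0.28, SE 0.41) had adjusted p from 0.393 to 0.836.

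**Figure D3:**
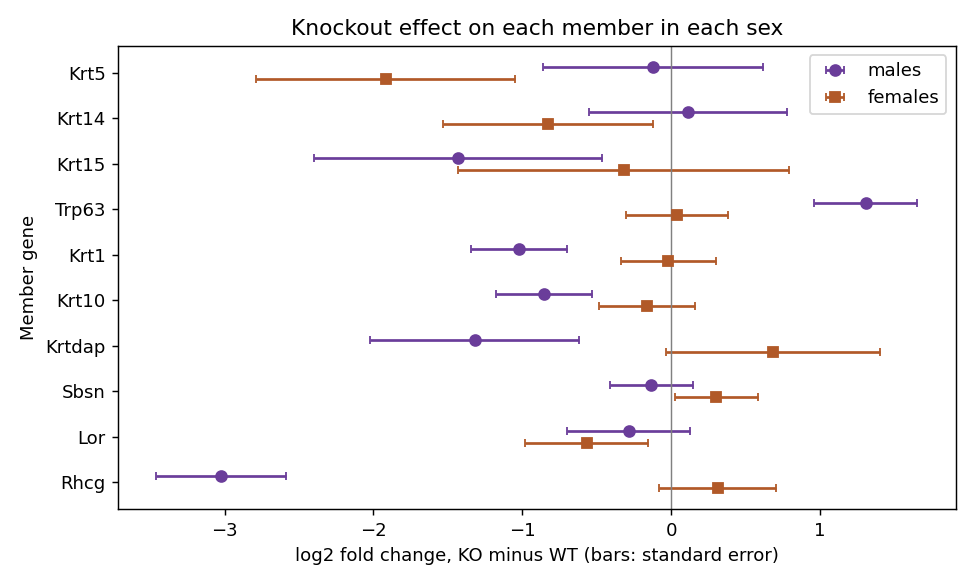
Log2 fold change of each member, KO minus WT, with its standard error as bars, for males (circles) and females (squares). In males Rhcg is at -3.02 and Trp63 at 1.31, while in females the values of these genes are 0.31 and 0.04.

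In females 0 of 18104 genes passed in edgeR (0%), with 9.27% at an unadjusted p under 0.05, and DESeq2 called 0.811% of the genes. None of the 10 members was in either set. Values were negative for 6 of 10 members, with a median of -0.09, and 52.6% of all genes were positive. Krt5 lay lower without overlap (26.2% of all genes) at a log2 fold change of -1.92 (SE 0.87, adjusted p = 0.541), from 6 and 3 counts in KO. Sbsn lay higher without overlap (25.9% of all genes) at 0.31 (SE 0.28, adjusted p = 0.679). Rhcg had 0.31 (SE 0.39), Trp63 0.04 (SE 0.35), Krt1 -0.02 (SE 0.32) and Krt10 -0.16 (SE 0.32).

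Whether the knockout effect differed by sex was tested as one contrast (females minus males), which no gene passed in edgeR (0%), with 16.7% at an unadjusted p under 0.05. Rhcg and Trp63 were in that 16.7%. The value was positive for 6 of 10 members and for 51.7% of all genes. For Rhcg the difference was 3.34 (SE 0.58) and for Trp63 -1.27 (SE 0.49, adjusted p = 0.275). Krt1 had 1.00 (SE 0.45, adjusted p = 0.304) and Krtdap 2.00 (SE 1.00, adjusted p = 0.336). DESeq2 called 2.04% of all genes, Rhcg among them. Nothing is read from its call for Rhcg, since the low value in KO males was known when the list was made. That call ended without male WT 2 (adjusted p = 0.0802) or female KO 1 (0.0908).

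Over both sexes 0% of the genes passed in edgeR, 6.83% had an unadjusted p under 0.05, and DESeq2 called 0.779%. Of the members 0 were in any of these sets, and their smallest adjusted p was 0.752. The members' median was -0.47 and that of all genes -0.01, with 8 of 10 members negative. None of the 10 separated the 4 KO from the 4 WT libraries, where 3.32% of all genes did so in one direction or the other, and 48.9% had a positive value. Between the sexes, 3 genes passed in edgeR (0.0166%) and no member was among them. In DESeq2 1.30% of all genes were called, and again no member. At an unadjusted p under 0.05 (8.67% of all genes) there was 1 member, Krt10, with a female minus male difference of -0.68 (SE 0.26, adjusted p = 0.560). Values were positive for 2 of 10 members (49.5% of all genes), and 0 of 10 separated the sexes without overlap (4.11% of all genes).

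Other genes of the epidermis were read from lists of the layers. Of 22 granular layer and cornified envelope genes, 12 stayed under 1 CPM in every library and 12 were tested. The list summed to 30.55 and 11.33 CPM in WT males, 18.9 and 12.43 CPM in KO males, 11.5 and 14.24 CPM in WT females and 9.41 and 10.18 CPM in KO females. Male WT 1 was its highest library, and 12 of the 22 genes were highest there.

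Filaggrin (Flg), the protein that bundles keratin filaments in the granular layer, gave 284 and 15 counts in WT males, 1 and 1 in KO males, 5 and 1 in WT females and 7 and 1 in KO females. Hornerin (Hrnr), a relative of filaggrin, gave 180 and 4, 10 and 0, 8 and 0, and 2 and 1 in the same order. Flg2 gave 59 counts in male WT 1, 1 in male WT 2 and 0 in the other 6, and involucrin (Ivl), an early envelope protein, gave 49 in male WT 1 and 0 to 5 elsewhere. The desmosomal cadherin Dsg1a was at 1.504 CPM in male WT 1 and at 0 to 0.185 CPM in the other 7. These transcripts of the late epidermal layers were thus concentrated in male WT 1. Krt5 and Krt14 were also highest in that library, though only at 0.592 and 0.740 CPM. DESeq2 called Flg in males (adjusted p = 0.00603) and edgeR did not (0.212). Without male WT 1 DESeq2 gave Flg no adjusted p, and without male KO 1 the call ended (0.0931).

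**Figure D4:**
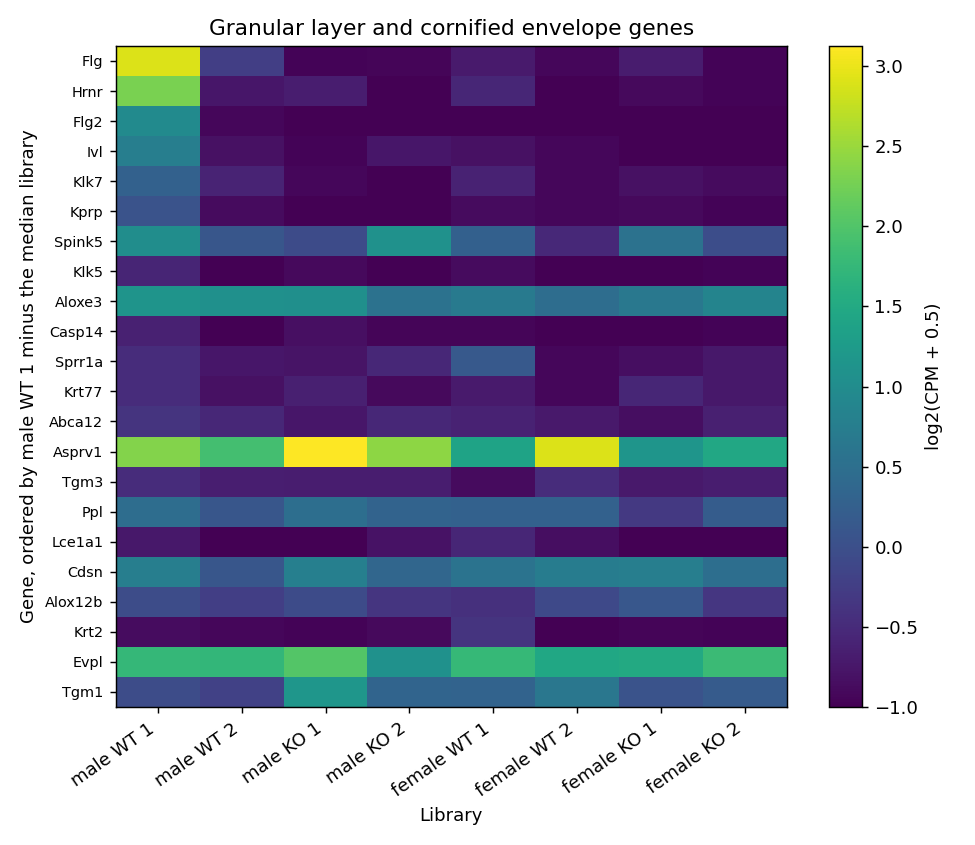
The 22 granular layer and cornified envelope genes in each library, as log2(CPM + 0.5), ordered by male WT 1 minus the median library. Flg, Hrnr, Flg2 and Ivl are brighter in male WT 1, where Flg is at 7.003 CPM, than in the other 7, while Evpl is bright in all 8 and Asprv1 is brightest in male KO 1.

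In the granular layer and cornified envelope list, Klk7 gave 29 counts in male WT 1 and 0 to 7 elsewhere, and Kprp gave 22 and 0 to 2. Some other genes of that list had no peak there or a smaller one. The protease Asprv1, which processes filaggrin, was at 1.73 to 8.23 CPM with its highest value in male KO 1. Envoplakin (Evpl) was at 1.64 to 3.58 CPM, Aloxe3, a lipoxygenase of the skin barrier, at 0.887 to 1.70 CPM and corneodesmosin (Cdsn) at 0.577 to 1.22 CPM. Aloxe3 was highest in male WT 1, with male WT 2 next at 1.59 CPM. Krt2 and Krt77, keratins of the upper epidermis, stayed at or under 0.270 CPM and 0.222 CPM. The highest Krt77 value was in male WT 1, from 9 counts. Of the stress and companion keratins Krt6a, Krt6b, Krt16 and Krt17, all 4 stayed under 1 CPM, with Krt17 highest at 0.327 to 0.715 CPM.

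Genes of basal adhesion were at higher levels than the basal keratins, some of them by little. Per kilobase the mean was 10.15 CPM for Itga6, 9.63 for Plec and 5.16 for Dst, against 0.257 for Krt14. For Lamb3 it was 0.799, for Col17a1 0.657, for Col7a1 0.483 and for Lama3 0.363. The 10 genes of that list summed to 319 and 236.6 CPM in WT males, 712.2 and 401.7 CPM in KO males, 396.7 and 372.4 CPM in WT females and 370.6 and 495.4 CPM in KO females. Most came from Plec and Dst, which link filaments to junctions in many tissues, at means of 168.7 and 165.5 CPM, and from the laminin receptor chain Itga6 at 44.25 CPM. The placental cadherin Cdh3 had a mean of 7.32 CPM. All 10 were positive in males (45.4% of all genes), 4 had an unadjusted p under 0.05 (14.8% of all genes) and 0 passed in edgeR. DESeq2, which called 2.66% of all genes, called Itga6 there (log2 fold change 1.05 in edgeR, SE 0.25, adjusted p = 0.233 in edgeR, 0.0171 in DESeq2), a call that ended without male WT 2 (0.332) or male KO 1 (0.0934).

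Of the 10 desmosome and junction genes, 4 stayed under 1 CPM. The rest were led by Jup (58.83 CPM on average), Perp (14.7), desmoplakin (Dsp, 8.95) and Dsc3 (5.83), and Dsg3, the basal cadherin, was among the 4. Epidermal transcription factors included Klf4 (39.22 CPM on average), Dlx3 (7.77) and Klf5 (5.999), and 3 of 10 stayed under 1 CPM. Klf5 was at 3.82 and 2.72 CPM in WT males and at 8.85 and 6.58 CPM in KO males. DESeq2 called it (log2 fold change 1.24 in edgeR, SE 0.29, adjusted p = 0.233 in edgeR, 0.0130 in DESeq2), and the call ended without male WT 2 (0.364) or male KO 1 (0.114).

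The oesophagus was looked for with 12 genes of oral and oesophageal epithelium, of which 9 stayed under 1 CPM. Cornulin (Crnn), an envelope protein of the oesophagus, had 0 counts in all 8 libraries, which allows up to 0.0392 to 0.0831 CPM from counting error alone. Krt4 was at 0.493 and 0.0461 CPM in WT males, 0.105 and 0.0929 CPM in KO males, 0.248 and 0.194 CPM in WT females and 0.0179 and 0.0997 CPM in KO females. Krt13, its partner, gave 20 counts each in the libraries male WT 1 and female WT 1, and 2 to 4 in the other 6. The list summed to 21.47 to 47.11 CPM, but most of it was Mal (18.96 CPM on average) and Sox2 (14.14 CPM), which glia and the spinal cord also express. Pitx1, a hindlimb factor too, was at 2.52 and 0.914 CPM in WT females and 0.232 and 0.242 CPM in KO females. DESeq2 called it in females (adjusted p = 0.0199; 0.545 without female WT 1, 0.578 without female KO 1 and 0.430 without female KO 2). DESeq2 also called the sex-by-genotype difference for Pitx1 (KO effect in females minus that in males, -4.45 in edgeR, DESeq2 adjusted p = 0.0155).

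Hair follicle and pigment cell genes were read in the same way. Of 17 follicle genes measured, 14 stayed under 1 CPM and Krt72 was at 0 in all 8, with Hoxc13 (2.90 CPM), also a tail Hox gene, and Tchh (2.43 CPM) the highest on average. The follicle list summed to 5.92 to 11.46 CPM. Its lowest sum was in male WT 1, where Hoxc13 was at 0 against 1.78 to 5.22 CPM elsewhere. Melanocyte genes summed to 7.96 to 16.22 CPM with 5 of 8 under 1 CPM, led by Mitf (6.21) and Tyrp1 (3.49), while Pmel averaged 0.901 CPM and Dct 0.306 CPM. DESeq2 called Tyrp1, a pigment enzyme, as higher in KO in females (edgeR log2 fold change 1.43, DESeq2 adjusted p = 0.0412) and over both sexes (1.13, 0.00881). The melanocyte genes did not move together: of the 6 tested, 3 were positive in females and 3 negative. The negative ones were Dct (-2.555), Mlana (-1.26) and Pmel (-0.68). DESeq2 also called the sex-by-genotype difference for Dct (-4.10 in edgeR, DESeq2 adjusted p = 0.0383). Whether the Tyrp1 and Dct calls held with 1 library left out was not tested.

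Keratins of simple epithelium were higher per kilobase than those of the basal layer, with means of 13.03 CPM per kb for Krt8 and 12.18 for Krt19. Krt8 was at 17.14 to 35.91 CPM and Krt19 at 11.98 to 27.22 CPM. Krt7 averaged 4.498 CPM and E-cadherin (Cdh1) 4.37 CPM. The list summed to 43.77 to 85.92 CPM with female WT 1 highest, so it did not have the peak of Flg in male WT 1. The 6 listed genes of thymic epithelium, which also makes Krt5 and Trp63, summed to 3.15 to 5.65 CPM, led by Ccl25 (2.51 CPM) and Ly75 (1.25 CPM). Others of that list were near 0: over all 8 libraries Foxn1 gave 4 counts, Psmb11 16 and Aire 39. Glandular stomach genes summed to 1.43 to 3.74 CPM, with Gkn2 at 0 in all 8, and were led on average by Atp4a (0.866 CPM) and Gkn3 (0.601 CPM). The highest sum was in female WT 1, where Tff2 gave 72 counts (1.62 CPM). Tff2 gave 9 counts in male WT 1 and 0 or 1 elsewhere.

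Male WT 1, the library of the Flg peak, was also high in adipocyte markers. The 8 of them, led by Fabp4 and Ucp1, summed to 5306.3 CPM there, 842.9 in male WT 2, 828.8 and 5474.0 in WT females, 260.7 and 474.9 in KO males and 438.8 and 245.1 in KO females. Female WT 2, with 5474.0 CPM, had 1 count of Flg and 0 of Hrnr. The part of these markers' tissue in the Flg level was not tested. The lung list was high in both WT males (41.13 and 80.46 CPM, against 3.63 to 10.76 CPM in the other 6), with Sftpc at 23.57 and 1.66 CPM and Scgb3a2 at 7.27 and 69.41 CPM in the same order. The spinal cord neuron list summed to 1130.6 to 2131.4 CPM and the cartilage list to 6244.9 to 28770.2 CPM, and male WT 1 was neither the highest nor the lowest library of either.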

How the data were processed

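Raw read counts by Entrez gene ID, not normalized, were deposited by the authors as a single table. HISAT2, featureCounts, FastQC, MultiQC and mm10 are named, without settings, in the submitters' processing notes. RNA was taken from frozen spines with TRIzol and sequenced after a stranded mRNA kit, per the labels' protocols. Symbols came from RefSeq (GRCm38.p6) for 25275 of 27179 genes, exon lengths from GENCODE M21, and sequences from RefSeq.

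Genes were filtered with filterByExpr (minimum count 10) and normalised by TMM in edgeR 4.0.16 (R 4.3.3). Quasi-likelihood fits used 4 group means (4 residual degrees of freedom) or sex plus genotype (5), with Benjamini-Hochberg adjustment over 18104 genes and a threshold of 0.05. The tests are two-sided. SE is the log2 fold change divided by the square root of F. The biological coefficient of variation was 27.8%. The fit was run on simulated data in which the changed genes had a mean above 5 CPM. Of the members only Krt10 had such a mean. The simulation therefore does not show what the fit can find at the levels of the others. DESeq2 1.42.0 and limma 3.58.1 (voom) were alternatives. Replicates were kept apart, since their counts differed by more than sampling allows (chi-square divided by its degrees of freedom, 131.5 to 649.2). Intervals and floors cover counting error only.

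The members and the marker lists were chosen with earlier results of these data known. By rule all 10 members were named, and from each list the up to 4 genes with the highest mean CPM. The 8 genes outside the lists most like the members (mean of at least 1 CPM) were named as well. Some list genes that this rule takes are not reported here. Further list genes named here were chosen after their values were seen. Of 199 list entries 198 were in the table (Krt85 was not used). Log2 levels carry a pseudocount of 0.5.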

Additional observations from a re-analysis of the deposited data

Results flagged for a closer look

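Among the members and list sums, 58 sets of 4 libraries of the same genotype were screened for a library far from the other 3. Each set held both sexes. Of the 58 sets 4 stood out, a share near the 1 in 20 that chance gives, so nothing is read from their number. The granular layer and cornified envelope genes summed to 30.55 CPM in male WT 1 and to 11.33, 11.5 and 14.24 CPM in the other WT libraries. Trp63 was lowest in male WT 2 at 2.03 CPM, where the other WT libraries were at 2.49 to 2.57 CPM. The oral and oesophageal list was highest in male KO 2 at 42.17 CPM, against 30.56 to 31.55 CPM in the other KO libraries. The glandular stomach list was lowest in male KO 2 at 1.43 CPM, against 2.04 to 2.08 CPM.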

How the results depend on the processing

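Of 700 member values under other settings, 658 kept direction and side of the threshold, 38 turned direction and 4 passed it newly. Genes past the threshold in males numbered 0 in edgeR, 39 without the filter on low counts and 481 in DESeq2. In females DESeq2 gave 144 and leaving out 1 library gave 0 to 33 (33 without female WT 2). Over both sexes DESeq2 gave 141. For the sex-by-genotype difference there was 1 without the filter, 362 in DESeq2 and 0 to 9 without 1 library (9 without female WT 2). Between the sexes there were 12 without the filter, 235 in DESeq2, 5 in voom and 2 to 35 without 1 library (35 without male KO 2). The members' median ran from -0.88 (without male WT 2) to -0.18 (without male WT 1) in males, from -0.35 (without female WT 2) to 0.39 (without female WT 1) in females, and from 0.0596 (without male WT 1) to 0.65 (without male WT 2) for the sex-by-genotype difference (KO effect in females minus that in males). The cause of these shifts was not tested.

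Directions that turned when 1 library was left out were, in males, Krt5 (-0.86 to 1.47), Krt14 (-0.40 to 0.90), Krt15 (-3.32 to 0.15), Sbsn (-0.26 to 0.019) and Lor (-0.92 to 0.15). In females they were Krt14 (-1.49 to 0.51), Krt15 (-1.09 to 0.86), Trp63 (-0.31 to 0.33), Krt1 (-0.39 to 0.47), Krt10 (-0.32 to 0.00536), Krtdap (-0.19 to 1.23) and Rhcg (-0.062 to 0.62). Over both sexes they were Krt14 (-0.64 to 0.26), Krtdap (-0.87 to 0.24) and Sbsn (-0.041 to 0.19). For the sex-by-genotype difference they were Krt14 (-1.73 to 0.37), Krt15 (-0.46 to 3.001) and Lor (-0.72 to 0.35), and between the sexes Krt1 (-0.29 to 0.11), Sbsn (-0.16 to 0.0678) and Lor (-0.0717 to 0.36). In voom the male value of Krt5 was 0.23, and the female values of Trp63 and Krt1 were -0.00999 and 0.0285. In males Trp63 (1.00 to 1.57), Krt1 (-1.08 to -0.96), Krt10 (-1.38 to -0.46) and Rhcg (-3.23 to -2.77) kept their direction in edgeR with any 1 library left out.

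The replicate numbers were not shown to pair libraries: deviations of same-numbered libraries correlated from -0.615 (male KO with female KO) to 0.195 (male WT with female KO). With the replicate block the male values were 0 genes past the threshold and a member median of -0.59, with Krt5 at 0.12. In females the block gave 0 genes, with Krt15 at 0.17 and Krt1 at 0.0103, and between the sexes 2 genes. Crossing the numbers of female KO, chosen after seeing the data, gave 2 genes. The DESeq2 fits without 1 library were also added after seeing the data. Krt5, Krt14 and Krt15 rest on 3 to 52 counts a library, which limits their precision.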
